A study of Mus musculus with 6 samples.

Results

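The genes of the PTHrP and Indian hedgehog loop are 9 in number here: the ligand gene Pthlh, its receptor gene Pth1r, the ligand gene Ihh, the hedgehog receptor and inhibitor genes Ptch1, Smo and Hhip, and the transcription factor genes Gli1, Gli2 and Gli3. They were found by symbol in the mouse GENCODE M21 annotation, and each matched 1 of the 55536 genes of the deposited count matrix. They were measured by RNA sequencing of perichondrium, the fibrous sheath around cartilage, taken from limb bones of mice on postnatal day 4. Of 6 libraries, 3 came from wild-type mice (WT-596, WT-597, WT-795) and 3 from Fbn1Scx-/- mice (mut-596, mut-597, mut-795), in which the gene of the microfibril protein fibrillin-1 was removed with Scx-Cre, a recombinase driven by the promoter of the tendon and ligament gene scleraxis. The libraries are named after the numbers in their titles, and values are given throughout in the order of these names. The series title names loss of TGFβ signalling in perichondrium and bone overgrowth, and the comparison asks here whether the genes of the main growth plate feedback loop differed in that tissue. The sources used here do not say whether the wild-type mice carried the Cre, whether animals were pooled or which exons of Fbn1 were removed.

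In the growth plate, PTHrP, the protein of Pthlh, is released near the ends of the bone and acts through its receptor on chondrocytes, which it keeps dividing and holds back from enlarging. Chondrocytes that leave this zone make Indian hedgehog, which reaches the perichondrium, where it drives the bone collar, and which keeps Pthlh expressed. Hedgehog ligands bind the receptor of Ptch1 and so free the membrane protein of Smo, which acts through the GLI factors. Ptch1, Hhip and Gli1 are themselves standard target genes of the pathway, and both Ptch1 and Hhip also bind and hold the ligand.

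Values are CPM (edgeR's cpm: a gene's counts relative to the total of its library after TMM scaling, which evens out differences in library composition), and levels of different genes are compared only as CPM per kilobase of merged exons. Total counts per library lay between 7209217 and 10316017, and the loop genes took between 0.0319% and 0.0475% of them. Fbn1 was at 10.04, 6.75 and 7.10 CPM in the knockouts and at 119, 84.7 and 63.5 CPM in the wild types, low in every library labelled knockout (log2 fold change -3.48, SE 0.29, edgeR adjusted p = 1.03e-04). Markers of perichondrium and fibrous sheath were all measured (14 of 14) and summed to between 21266 and 26163 CPM in each library. Of the 19 chondrocyte markers 18 were tested, and their sum, between 2227 and 3486 CPM, was mostly Col11a1 (1707 to 2853 CPM), while Col2a1, the main collagen of cartilage, was at 48.1 to 150 CPM. All 20 skeletal muscle markers were expressed highly enough to be tested, and their sum lay between 3381 CPM in mut-596 and 13798 CPM in WT-597. The epidermal keratin gene Krt14 had 0 counts in every library, but Krt5, also an epidermal keratin gene, was at 3.19 to 9.02 CPM. Of 9 epidermis and hair follicle markers 2 were tested and 3 had 0 counts throughout. The 9 summed to between 8.72 and 15.6 CPM. Xist, transcribed from the inactive X chromosome of females, had 6221, 4024 and 4 counts in the knockouts and 4, 2 and 1 in the wild types, and the Y-linked gene Ddx3y had 0, 0 and 1641 counts and 1199, 842 and 1117 counts. Thus mut-596 and mut-597 differed in sex from the other 4 libraries, which was not tested beyond a fit with Xist as a covariate. WT-795 stood apart from the other wild types, and leaving it out raised the number of genes past the threshold from 1 to 1512, so values without it are given beside the results that it decides. EdgeR tests, two-sided, with Benjamini-Hochberg adjustment over 15712 genes are used, with a threshold of 0.05. The labels do not state that libraries are separate animals, so p-values measure the spread between libraries, and intervals cover counting error alone.

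No loop gene passed the test. Of the 9, 8 had enough counts to be tested, and 0 of them passed by edgeR, by DESeq2 or by limma-voom. Over all genes tested, 0.00636% passed by edgeR, which is Fbn1 alone. At an unadjusted p under 0.05, edgeR gave 1 of the 8, the receptor gene Pth1r, against 10.5% of all genes tested, DESeq2 gave 1 and limma-voom 0. Of the 8 fitted values, 5 lay below 0 and 3 above, between -0.60 for Pth1r and 0.46 for Ptch1, with a median log2 fold change of -0.11 against 0.01 over all genes tested. The plot of levels by library shows overlapping groups for every loop gene but Hhip.

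**Figure D1:**
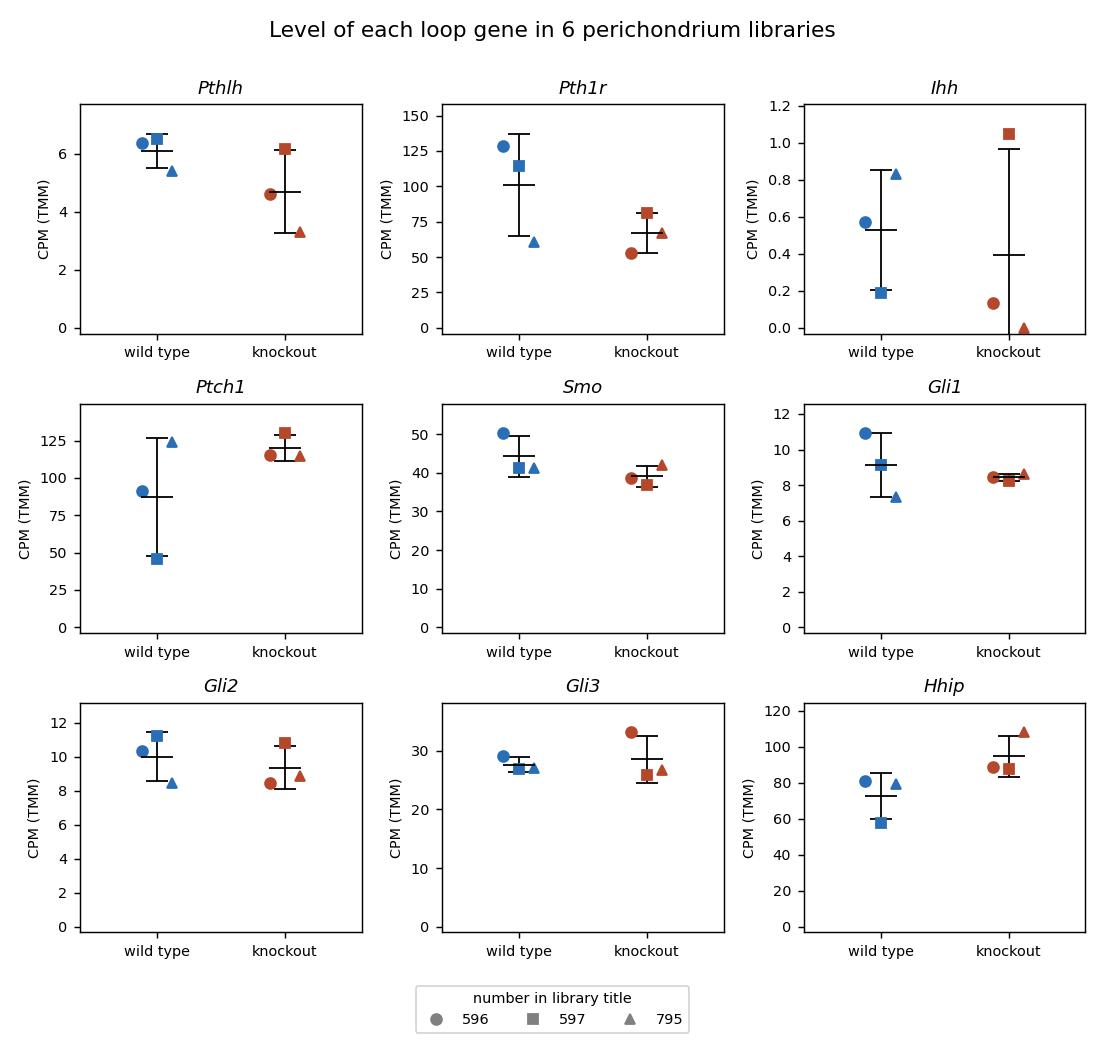
Level of each of the 9 genes (y axis, CPM scaled by TMM, from 0) in wild-type (blue) and knockout (red) libraries, with a symbol shape for each number in the library titles and the group mean ± SD in black (n = 3). Hhip is the gene whose 3 knockout libraries (87.4 to 108 CPM) all lie above the wild-type libraries (57.8 to 80.9 CPM), and Ihh is near 0 throughout.

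The starts of 3 of these genes are shown because their fitted values stand at the 2 ends of the loop: Ptch1 and Hhip, the feedback targets with the highest fitted values, and Pth1r, the gene with the lowest. Each run is the 250 bases before a start in the RefSeq table (GRCm38.p6), all on the minus strand, written 5′ to 3′: Ptch1 at chr13:63565736-63565985, Hhip at chr8:80058009-80058258 and the outermost of 3 listed starts of Pth1r at chr9:110747146-110747395. The Ptch1 start in the table lies inside the gene as GENCODE draws it. Capitals mark CCACCC or its reverse complement, the core of the GLI binding motif.
Ptch1: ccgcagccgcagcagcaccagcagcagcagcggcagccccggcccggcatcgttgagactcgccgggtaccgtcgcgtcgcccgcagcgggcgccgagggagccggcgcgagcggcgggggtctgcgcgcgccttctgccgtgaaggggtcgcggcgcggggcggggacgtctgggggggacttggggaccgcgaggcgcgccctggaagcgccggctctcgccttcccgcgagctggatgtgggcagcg
Hhip: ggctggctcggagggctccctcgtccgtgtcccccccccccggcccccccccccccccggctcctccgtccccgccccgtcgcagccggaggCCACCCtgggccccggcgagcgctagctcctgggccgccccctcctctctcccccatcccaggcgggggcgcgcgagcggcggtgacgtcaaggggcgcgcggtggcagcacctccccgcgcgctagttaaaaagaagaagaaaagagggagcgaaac
Pth1r: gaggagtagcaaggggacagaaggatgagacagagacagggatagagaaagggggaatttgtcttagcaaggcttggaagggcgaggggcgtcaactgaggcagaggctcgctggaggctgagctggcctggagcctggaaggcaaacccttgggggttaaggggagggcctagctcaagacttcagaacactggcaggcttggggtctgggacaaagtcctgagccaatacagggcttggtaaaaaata

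RefSeq promoters were found for 8 of the 9 genes, without Gli1. The 9-letter GLI motif GACCACCCA, searched on both strands, was in none of the windows of the 8 and in 0.225% of all 32851 windows of that length. Its core CCACCC, which the longer motif contains, was in the windows of Pthlh, Ihh, Smo, Gli2, Gli3 and Hhip and in 28.1% of all windows. In Hhip the core began 158 bases before the start, and Ptch1 and all 3 Pth1r windows held none. The cyclic AMP response motif TGACGTCA was in the Hhip window alone, 75 bases before the start, and in 1.55% of all windows. These are letter matches in one short window and say nothing of sites elsewhere.

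Per kilobase of exon, the receptor of PTHrP was the most abundant transcript of the loop and Indian hedgehog the least. Over the 6 libraries the median was 25.2 CPM per kilobase for Pth1r, 9.28 for Hhip, 8.11 for Ptch1, 7.33 for Smo, 3.57 for Pthlh, 2.81 for Gli3, 1.71 for Gli1, 1.40 for Gli2 and 0.124 for Ihh. The ranges over libraries did not overlap between Pth1r and Hhip, between Smo and Pthlh, between Gli3 and Gli1, or between Gli2 and Ihh. They overlapped between the other neighbours in that order: Hhip was above Ptch1 in 6 of 6 libraries, Ptch1 above Smo in 4, Pthlh above Gli3 in 4 and Gli1 above Gli2 in 6. Among all genes tested, Pth1r stood at the 89.2 percentile of the mean level per kilobase, Hhip at 76.4, Smo at 72.2, Ptch1 at 71.9, Pthlh at 53.4, Gli3 at 49.9, Gli1 at 35.7 and Gli2 at 29.8. The length is that of all annotated exons merged, 14185 bases for Ptch1 and 1619 for Pthlh, so genes with long alternative exons are placed lower than a single transcript would be.

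**Figure D2:**
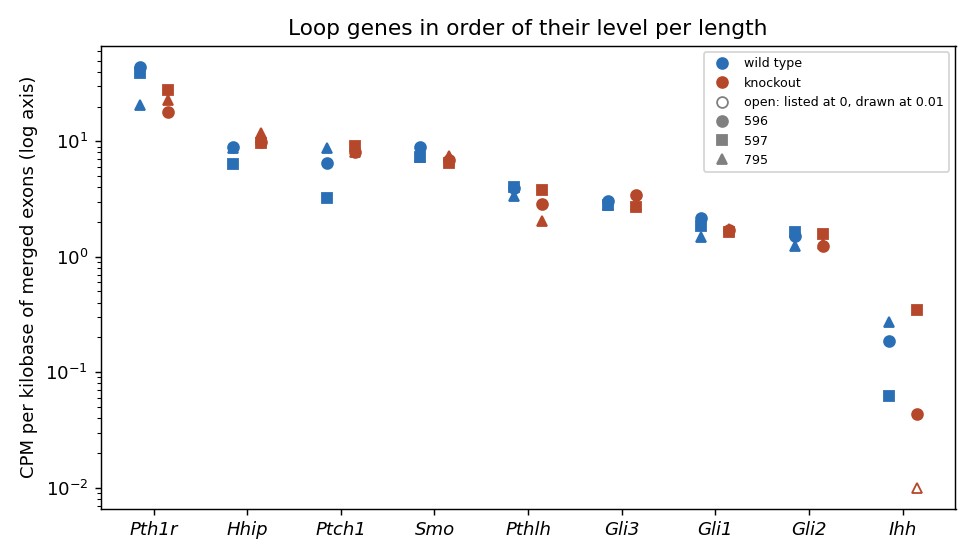
Level per length (y axis, CPM per kilobase of merged exons, log axis) of the 9 genes in order of their median, with wild-type libraries in blue and knockout libraries in red. Pth1r lies between 18.1 and 44.0, and Ihh between 0 (open symbol, drawn at 0.01) and 0.344.

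The ligand gene Ihh (ENSMUSG00000006538, chromosome 1, 74945315 to 74951672, minus strand, GRCm38) was close to the limit of detection. Its counts were 1, 7 and 0 in the knockouts and 6, 2 and 6 in the wild types, 22 in all, too few for the filter. The 0 in mut-795 allows up to 0.309 CPM. Pooled over libraries, knockout held 8 counts, or 0.334 CPM (95% exact Poisson interval 0.144 to 0.658), and wild type 14, or 0.494 CPM (0.270 to 0.829). The ratio of knockout to wild type was 0.676, with an interval of 0.246 to 1.73 that covers counting error only and includes 1. It rested on mut-597, which held 7 of the 8 knockout counts: without that library the ratio was 0.117 (0.00277 to 0.769), and without mut-795 it was 1.14 (0.413 to 2.91). The knockout libraries differed too much among themselves, at these counts, for a direction to be read. A marker of the cells that follow the Ihh-making zone, Col10a1, the collagen of hypertrophic cartilage, was present at 18.8, 32.7 and 31.5 CPM in the 3 knockouts and 45.9, 17.9 and 45.2 CPM in the wild types. The log2 difference between Ihh and Col10a1, with a prior count of 2, was -5.84 ± 1.22 in knockout and -5.57 ± 0.24 in wild type (SD, n = 3), and the groups overlapped. In bulk tissue, fewer cells of a type and less RNA per cell cannot be told apart.

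Pthlh, the gene of PTHrP (ENSMUSG00000048776, chromosome 6, 147252101 to 147264183, minus strand), was low in every library and did not differ beyond the spread. It was at 4.62, 6.15 and 3.29 CPM in the knockouts, from 35, 41 and 32 counts. The wild types were at 6.36, 6.51 and 5.40 CPM, from 67, 69 and 39 counts. Of the knockouts, mut-597 lay inside the wild-type range and the other two lay below it. The log2 fold change was -0.40 (SE 0.32, edgeR adjusted p = 0.584), and an exact two-sided permutation test over the 6 libraries gave p = 0.2. Leaving out mut-597 gave -0.63 and leaving out mut-795 gave -0.20. With Xist as a covariate the value was -0.89, but it rests on mut-795 alone against the wild types. A correction for the GC content of transcripts gave -0.25 (SE 0.29, edgeR adjusted p = 0.857).

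Pth1r, the receptor gene (ENSMUSG00000032492, chromosome 9, 110722085 to 110747145, minus strand), had the lowest fitted value of the loop, and 1 wild-type library decided its call. The receptor is carried by prehypertrophic chondrocytes and by cells of the osteoblast lineage. It was at 53.0, 80.8 and 66.9 CPM in the knockouts, from 401, 539 and 650 counts. WT-596 and WT-597 were higher, at 129 and 114 CPM from 1356 and 1213 counts, while WT-795 was at 60.4 CPM from 436 counts, inside the knockout range. The knockouts averaged 66.9 ± 13.9 CPM against 101 ± 36.1 CPM for the wild types (SD, n = 3). The log2 fold change was -0.60 (SE 0.28, unadjusted p = 0.0484, edgeR adjusted p = 0.473, exact permutation p = 0.3). Without WT-795, Pth1r fell by 0.89 on the log2 scale (SE 0.22, edgeR adjusted p = 0.0250), in a fit in which 9.62% of all genes passed. It was the 1 loop gene of 8 that passed there. A GC correction takes out each library's trend of log2 CPM with the GC content of the transcript. With it added to that fit the value was -0.28 (SE 0.19, edgeR adjusted p = 0.491), and with the correction and all libraries -0.13 (SE 0.20, edgeR adjusted p = 0.887).

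The authors' deposited table of 1643 differential genes lists 1 loop gene, Pth1r, at a log2 fold change of -0.61, and 1271 of its values equal those of the DESeq2 fit made here within 1e-04. In that fit Pth1r had an unadjusted p of 0.0352 and a DESeq2 adjusted p of 0.455, and 1640 genes had an unadjusted p under 0.05. The DESeq2 fit took in all 31958 genes with any count. EdgeR, on the 15712 genes that its filter kept, gave such a p for 10.5%, a share from another test and gene set. With 1 loop gene listed, no excess is read.

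Levels of Pth1r went with those of some cell types' markers across libraries and not with those of others. The 12 osteoblast markers summed to 8786, 10257 and 7664 CPM in the knockouts and to 12025, 15382 and 9580 CPM in the wild types, and 9 of their 11 tested members lay below 0. Col1a1 is among them and is also listed here for perichondrium and fibrous sheath, so the sum is not of osteoblasts alone. Over the 6 libraries, which share the group difference and its GC trend, Pth1r and the mean of the osteoblast markers had a Pearson r of 0.98 (Spearman 0.94). With macrophage markers r was 0.93 (Spearman 0.89), with endothelial markers 0.92 (Spearman 0.71) and with resting and articular chondrocyte markers 0.89 (Spearman 0.83). With muscle markers it was 0.76 (Spearman 0.83). With tendon markers r was 0.47, with prehypertrophic and hypertrophic chondrocyte markers 0.40 and with pericyte and smooth muscle markers 0.39. Perichondrium and fibrous sheath markers gave 0.25, Schwann cell markers -0.09 and general chondrocyte markers -0.34. The Pth1r value with a muscle covariate was -0.36. Muscle markers summed to 3381, 6675 and 6363 CPM in the knockouts and 5706, 13798 and 4382 CPM in the wild types, and 18 of 20 lay below 0, with the muscle actin gene Acta1 at -0.91 and the creatine kinase gene Ckm at -0.68. The exons of Pth1r share 95 bases with Myl3, a myosin light chain gene on the other strand. Reads within those 95 bases cannot be told apart because strand was not marked. Over all its exons Myl3 held 879 counts, and it was at -0.16 (SE 0.28). The part of these cell types and of GC in the Pth1r value was not tested beyond these fits.

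Ptch1, the receptor gene that hedgehog signalling itself induces (ENSMUSG00000021466, chromosome 13, 63508328 to 63573598, minus strand), had the highest fitted value. It was at 115, 130 and 115 CPM in the knockouts, from 872, 867 and 1116 counts. The wild types spread far more widely, at 91.5 CPM in WT-596, 45.5 CPM in WT-597 and 124 CPM in WT-795. WT-795 lay inside the knockout range, and WT-597, the library with the highest sum of muscle markers, lay far below it. The log2 fold change was 0.46 (SE 0.30, edgeR adjusted p = 0.515, exact permutation p = 0.3). Without WT-795 it was 0.77 (edgeR adjusted p = 0.0738), without WT-597 0.14, and with the GC correction 0.42. Across the 6 libraries Ptch1 and the mean of the muscle markers had r = -0.86 (Spearman -0.37). This was not particular to muscle: with endothelial markers r was -0.87 (Spearman -0.49). With chondrocyte markers it was 0.66 (Spearman 0.37) and with macrophage markers -0.56 (Spearman -0.77). The log2 fold change of Ptch1 with a muscle covariate was 0.26. With a chondrocyte marker covariate it was 0.67 (unadjusted p = 0.00897, edgeR adjusted p = 0.258).

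Hhip, which encodes a membrane protein that binds hedgehog ligands and sequesters them (ENSMUSG00000064325, chromosome 8, 79965851 to 80058006, minus strand), was the 1 loop gene of 8 whose groups did not overlap, where 11.9% of all genes tested had such groups. The knockouts were at 88.6, 87.4 and 108 CPM. The wild types were at 80.9, 57.8 and 79.5 CPM. The gap between the nearest libraries, 80.9 and 87.4 CPM, was narrow beside the SD, 11.6 CPM for the knockouts and 12.9 CPM for the wild types. The log2 fold change was 0.38 (SE 0.22, edgeR adjusted p = 0.494), and the exact permutation p was 0.1, the smallest that 3 libraries against 3 allow. With the GC correction it was 0.06 (SE 0.19, edgeR adjusted p = 0.961). All 175 bases of the small gene Gm27820, on the other strand, lie in Hhip exons, and it held 638 counts against 4343 for Hhip. If the same reads were counted at both genes, Hhip without them would be at 65.6, 78.9 and 94.2 CPM in the knockouts and 72.1, 51.2 and 64.3 CPM in the wild types, and the groups would overlap.

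Smo (ENSMUSG00000001761, chromosome 6, 29735503 to 29761365, plus strand) encodes the signal transducer freed when a ligand binds. It was at 38.6, 36.7 and 41.97 CPM in the knockouts and at 50.3, 41.1 and 41.3 CPM in the wild types. WT-596 was the highest library, and the others lay within a range of a few CPM. The log2 fold change was -0.18 (SE 0.21, edgeR adjusted p = 0.705), and it was 0.20 with the GC correction.

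The 3 GLI genes, the transcription factors at the end of the pathway, were close between groups. Gli1, the activator whose own transcription reports hedgehog signalling (ENSMUSG00000025407, chromosome 10, 127329882 to 127341974, minus strand), was at 8.45, 8.25 and 8.64 CPM in the knockouts and at 10.9, 9.15 and 7.34 CPM in the wild types. The knockouts lay in a narrow band inside the wild-type range, with a log2 fold change of -0.12 (SE 0.26, edgeR adjusted p = 0.849). Gli2, the main activator (ENSMUSG00000048402, chromosome 1, 118834132 to 119053619, minus strand), was at 8.45, 10.8 and 8.85 CPM in the knockouts and 10.4, 11.2 and 8.45 CPM in the wild types, at -0.10 (SE 0.26, edgeR adjusted p = 0.867). Gli3, the main repressor (ENSMUSG00000021318, chromosome 13, 15463235 to 15730026, plus strand), was at 33.1, 25.8 and 26.7 CPM in the knockouts and 29.1, 26.9 and 27.0 CPM in the wild types, at 0.05 (SE 0.21, edgeR adjusted p = 0.933). With the GC correction Gli1 and Gli2 were above 0, at 0.31 (SE 0.24) and 0.28 (SE 0.22). The log2 CPM difference of Gli1 and Gli3 did not differ between groups beyond the spread, at -1.72 ± 0.19 in knockout and -1.59 ± 0.23 in wild type (SD, n = 3). Exons of Gli1 share 62 bases with Arhgap9 (146 counts) and 265 with Gm47200 (6 counts), and exons of Gli3 share 188 with Gm6556 (80 counts), so a few reads there are of uncertain origin.

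The 2 readout genes Ptch1 and Gli1 had different patterns over the libraries. Their log2 CPM difference was 3.73, 3.94 and 3.70 in the knockouts and 3.04, 2.28 and 4.04 in the wild types. The wild-type libraries spread on both sides of the knockouts, which were close to each other. Over the 6 libraries Ptch1 and Gli1 had r = -0.44 (Spearman -0.89), and Ptch1 and Hhip r = 0.83 (Spearman 0.31), while Gli1 and Hhip had r = -0.17 (Spearman -0.086). Pth1r had r = 0.80 with Gli1 (Spearman 0.71) and 0.85 with Gli2 (Spearman 0.83). These correlations describe 6 libraries that share the group difference, and no test was made of them.

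Fitted changes of the loop genes went with the GC content of their transcripts, as they did over all genes. Among genes whose mean log2 CPM reached 1, the median log2 fold change was 0.37 for 1994 genes with up to 42% GC and -0.45 for 901 genes between 58% and 62% GC. Hhip, at 41.2% GC, and Ptch1, at 47.8%, were the loop genes above 0 by more than 0.3, and Gli3, at 48.4%, was near 0. Pthlh, at 51.8%, lay below 0. Gli2, Smo, Gli1 and Pth1r, at 57.5%, 57.8%, 59.0% and 60.4%, lay below 0 as well. The trend followed the groups except in WT-795, which lay on the side of the knockouts. Genes over 58% GC had a median deviation of 0.34 and 0.40 in WT-596 and WT-597, on the log2 scale. It was -0.13 in WT-795 and -0.34, -0.03 and -0.20 in the knockouts. The GC correction therefore also takes out any group difference that goes with GC. Once the trend was taken out, Ptch1 was the loop gene with the largest value (0.42, SE 0.28, edgeR adjusted p = 0.774), and Pth1r and Hhip were nearer 0 than before.

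**Figure D3:**
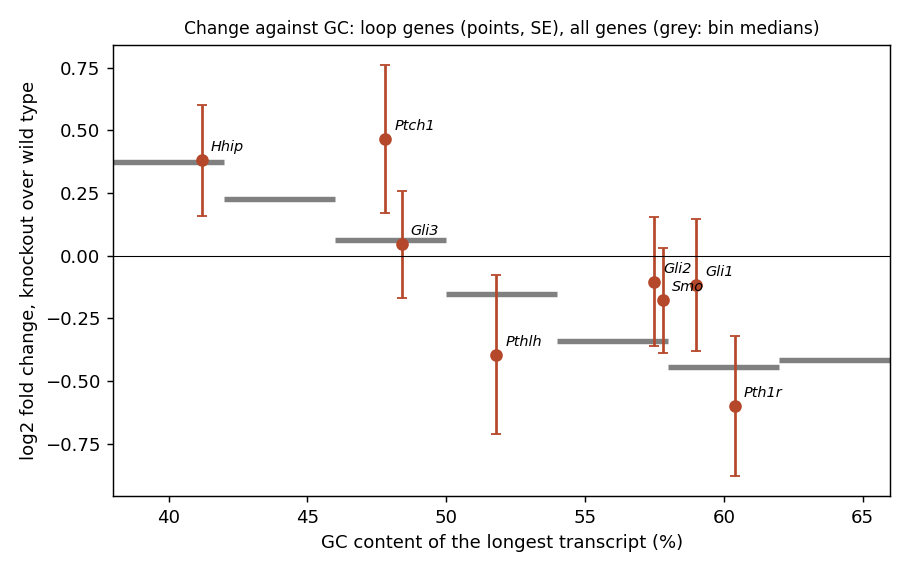
Fitted log2 fold change (y axis, knockout over wild type, bars show the SE) of the 8 tested loop genes against the GC content of their longest transcript (x axis, percent). Grey lines are medians of all genes in GC bins, the outermost bins drawn to the edge of the axis, and fall from 0.37 to -0.45 and -0.42. Ptch1 lies furthest above the grey lines.

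**Figure D4:**
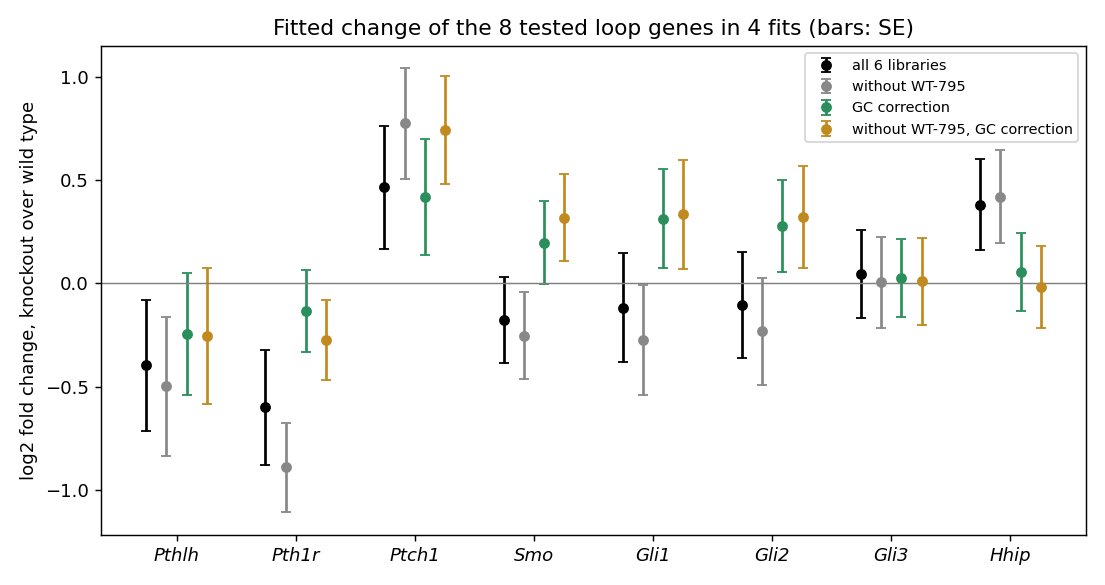
Log2 fold change with SE (y axis) of the 8 tested loop genes in 4 fits: all 6 libraries, without WT-795, with the GC correction, and with both. Pth1r is at -0.60, -0.89, -0.13 and -0.28 in that order, Ptch1 stays above 0 in each (0.46, 0.77, 0.42 and 0.74), and Smo, Gli1 and Gli2 change sign with the correction.

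The other genes of both pathways were read from 7 lists with 114 distinct genes, of which 103 were tested, 52 above 0 and 51 below. By edgeR 0 of the 103 passed, 6 had an unadjusted p under 0.05, where 10.5% of all genes tested did, and DESeq2 and limma-voom called 0. Without WT-795, 8 passed: Creb1 (0.87) and Gnaq (0.93) rose, and Ramp2 (-1.40), Igfbp6 (-1.35), Gnai2 (-1.27), Osr2 (-1.04), Prkaca (-0.96) and Sik3 (-0.89) fell, in the fit in which 9.62% of all genes passed. With the GC correction added, Foxc1, a forkhead factor gene chosen here after its value was seen, was the single one of 103 that passed (1.12, SE 0.21, edgeR adjusted p = 0.0231), in a fit in which 0.751% of all genes passed, a share close to that background. With the correction and all libraries, values of 6 of the 9 genes that had an unadjusted p under 0.05 or passed without WT-795 were nearer 0 by over 1.5 times: Gnai2 was at -0.58, Igfbp6 at -0.53, Osr2 at -0.47, Sik3 at -0.34, Prkaca at -0.33 and Creb1 at 0.23. Ramp2, Gnaq and Gpr161 were at -0.74, 0.53 and 0.90.

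Among hedgehog ligands and release factors 6 of 8 were tested, 4 above 0 and 2 below (median 0.03), and 0 passed. Shh, the ligand of early limb patterning, had 0 counts in every library, and Dhh, the ligand of Schwann cells, averaged 1.16 ± 0.0944 CPM over the knockouts against 1.47 ± 0.175 CPM over the wild types (SD, n = 3), from 8 to 15 counts a library. The groups did not overlap, as for 11.9% of all genes tested, and the log2 fold change was -0.32 (SE 0.46, edgeR adjusted p = 0.759). The 9 Schwann cell markers summed to 327, 315 and 210 CPM in the knockouts and 228, 216 and 222 CPM in the wild types. The part of Schwann cells in the Dhh values was not tested. Scube2, whose protein helps to shed hedgehog ligands, was at 25.6, 14.7 and 14.1 CPM in the knockouts and at 13.5, 13.0 and 11.5 CPM in the wild types. These groups did not overlap, and mut-596 set most of the difference (0.51, SE 0.27, edgeR adjusted p = 0.480). Disp1, which exports the ligand, and Scube3 were at -0.45 and 0.44.

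In the list on receptors and co-receptors 6 of 8 were tested, 2 above 0 and 4 below (median -0.30), and 0 passed. Gas1, a co-receptor gene, was at 111, 81.7 and 79.8 CPM in the knockouts and 145, 123 and 104 CPM in the wild types (-0.45, SE 0.23, edgeR adjusted p = 0.478), with mut-596 inside the wild-type range. Gas8, counted in this list but not itself a receptor or co-receptor gene, had its lowest value, -0.73. The co-receptor gene Cdon was at 0.37.

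In the list on transduction 20 of 21 were tested, 10 above 0 and 10 below (median -0.04). Gnai2, an inhibitory G protein subunit to which the Smo protein couples, was at 82.9, 146 and 118 CPM in the knockouts and 282, 267 and 126 CPM in the wild types. As for Pth1r, WT-795 lay among the knockouts (-0.96, SE 0.30, edgeR adjusted p = 0.459), and the value was -1.27 without it. Gpr161, a ciliary receptor that holds the pathway off, averaged 4.67 ± 1.24 CPM over the knockouts against 2.61 ± 0.75 CPM over the wild types (SD, n = 3), at 0.85 (SE 0.37, edgeR adjusted p = 0.464). Sufu, which tethers GLI proteins, was at -0.49 (SE 0.31). Its knockout libraries all lay below the wild types, where 11.9% of all genes tested had groups that did not overlap. Prkaca, a catalytic subunit of protein kinase A, and the kinase gene Dyrk2 were at -0.65 and 0.43. For the primary cilium, the organelle that hosts the pathway, 18 of 18 transport genes were tested, 11 above 0 and 7 below (median 0.05), with Ift88, Dync2h1, Arl13b and Rpgrip1l at 0.49, 0.40, 0.31 and 0.28, and 0 passed.

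The 22 target genes listed gave 18 tested, 9 above 0 and 9 below (median 0.02). Igfbp6, a secreted IGF-binding protein gene, was at 30.5, 43.0 and 33.1 CPM in the knockouts and 95.1, 82.5 and 37.7 CPM in the wild types (-1.02, SE 0.30, edgeR adjusted p = 0.459). Osr2, a transcription factor gene of limb mesenchyme, was at -0.74 and the survival gene Bcl2 at 0.42 (SE 0.22). The groups of Bcl2 did not overlap, as for 11.9% of all genes tested.

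Downstream of the PTHrP receptor, 23 of 25 signalling genes were tested, 11 above 0 and 12 below (median -0.06), and 0 passed. Gnas, the stimulatory G protein gene through which the receptor raises cyclic AMP, averaged 771 ± 65.4 CPM over the knockouts against 1039 ± 232 CPM over the wild types (SD, n = 3), at -0.43 (SE 0.25, edgeR adjusted p = 0.491). Gnaq, the G protein gene of its calcium branch, was at 0.60 (SE 0.28) and the cyclic AMP response factor gene Creb1 at 0.55 (SE 0.28). Ramp2, a receptor activity-modifying protein gene, was at 5.94, 18.7 and 12.3 CPM in the knockouts and 32.3, 31.4 and 15.4 CPM in the wild types (-1.11, SE 0.37, edgeR adjusted p = 0.459), with WT-795 inside the knockout range. Among its 1643 genes the authors' deposited table lists Gnas at -0.44, Gnaq at 0.59, Ramp2 at -1.11, Gnai2 at -0.97, Igfbp6 at -1.03 and Osr2 at -0.74. Its values come from the same 6 libraries.

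Among the effectors in chondrocytes 18 of 19 were tested, 8 above 0 and 10 below (median -0.09), and 0 passed. Hdac4, the histone deacetylase through which PTHrP delays hypertrophy, was at -0.21 (SE 0.22), and its kinase gene Sik3 at -0.63 (SE 0.29, edgeR adjusted p = 0.468). The factor genes that promote hypertrophy, Mef2c and Runx2, were at 0.33 (SE 0.23) and 0.24 (SE 0.20). Runx2 was at 113, 109 and 104 CPM in the knockouts and 93.5, 87.4 and 95.5 CPM in the wild types. These 2 groups did not overlap, as for 11.9% of all genes tested. Of the 18 effectors tested, 1 had all knockouts above the wild types and 1 had all below. Mef2a, Zfp521, Dlx5 and Crtc2 were at 0.41, 0.28, -0.43 and -0.71. Markers of prehypertrophic and hypertrophic chondrocytes summed to between 3071 and 4049 CPM over the knockouts and between 3374 and 4039 CPM over the wild types, with 5 of 16 tested members above 0, 11 below and a median of -0.17. Col10a1, at 17.9 to 45.9 CPM, was a small part of that sum, and Mef2c, at 278 to 454 CPM, a larger one. The sum is therefore no measure of hypertrophic cartilage. Of the general chondrocyte markers 18 of 19 were tested, 10 above 0 and 8 below, with a median of 0.09, and 0 passed. Their values differed in sign and ran from -1.19 to 0.61. The cartilage collagen genes Col2a1, Col9a1 and Col11a1 were at -0.49 (SE 0.30), 0.38 (SE 0.36) and 0.32 (SE 0.27), the last 2 chosen after their values were seen. By edgeR 3 of the 18 had an unadjusted p under 0.05, all below 0, where 10.5% of all genes tested had such a p. In 3 of the 18 the groups did not overlap, all with the knockouts below, where 11.9% of all genes tested had such groups.

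**Figure D5:**
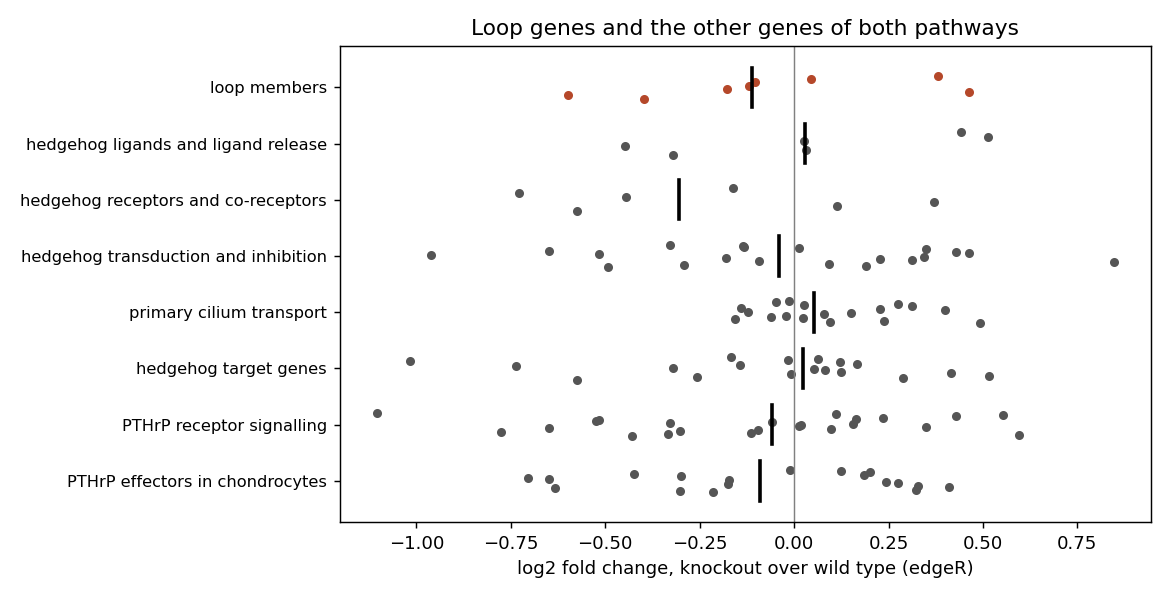
Fitted log2 fold change (x axis) of each tested gene in the loop (red) and in the 7 lists on both pathways (grey), with the median of each list as a black bar. All lists straddle 0, with medians between -0.30 and 0.05.

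The genes with levels most like those of 3 loop genes were sought among 11333 expressed genes (11334 for Ihh) by Pearson r of log2 CPM over the 6 libraries. They were Cmklr1, Taok2 and Cplx2 for Pthlh (r = 0.99 each), Eaf1, Sfrp1 and Zfp212 for Ihh (r = 0.98, 0.98 and 0.97), and Lcmt2, Krt5 and Uimc1 for Gli1 (r = 0.99, 0.99 and 0.98). With 6 libraries such values are common: 133 genes had r over 0.9 with Pthlh, 36 with Ihh and 114 with Gli1. Ihh has 22 counts, so its pattern rests on very few reads.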

How the data were processed

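The authors deposited raw counts, 1 whole number for each gene and library, and a table of log2 fold changes of mutant against wild type whose log base was judged from the values. Per the submitters' processing notes GRCm38.p6 and DESeq2 (no version) were named; per the file headers the reads came from coordinate-sorted alignments, and per the labels' protocols cDNA was made with a SMART-Seq kit, which does not mark strand. The sources used here do not give the counting settings. Counts were tested with edgeR 4.0.16 (glmQLFit, glmQLFTest) in R 4.3.3 with TMM scaling and filterByExpr across all 15712 genes kept, with Benjamini-Hochberg adjustment. The SE is the log2 fold change over the square root of F, log2 CPM has a prior count of 2, and levels per kilobase use GENCODE M21 exons. DESeq2 1.42.0, limma 3.58.1, other scalings and filters, left-out libraries, covariates, a replicate block and a GC correction (a loess of each library's log2 CPM deviation on transcript GC, as offset) were alternatives. The loop genes, gene lists and naming rule (up to 4 genes per pathway list by unadjusted p, fixed pathway genes, 3 most alike genes for Pthlh, Ihh and Gli1) were chosen with earlier results of these data known. Some genes that the rule names are not reported here.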

Additional observations from a re-analysis of the deposited data

How the results depend on the processing

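Of 19 alternatives, Pthlh, Pth1r and Ptch1 kept their sign in all (lowest and highest -0.89 and -0.20, -0.89 and -0.11, 0.14 and 0.77), and Pth1r passed without WT-795 alone. With the GC correction the values were 0.20 for Smo, 0.31 for Gli1 and 0.28 for Gli2, and with the replicate block and GC correction together 0.20, 0.31 and 0.28. With the GC correction and without WT-795, a fit chosen after seeing the data, they were 0.32, 0.33 and 0.32, and Hhip was at -0.018. With the muscle covariate Gli2 was at 0.026 and Gli3 at -0.021, and with the Xist covariate, in which mut-795 is the one knockout at the wild types' level, Gli3 was at -0.049. Leaving out 1 library moved Gli1 between -0.27 and 0.027 (above 0 without WT-596) and Gli3 between -0.074 and 0.11 (below 0 without mut-596).

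Genes past the threshold over all genes were 1 by edgeR, 4 by DESeq2, 270 with no filter, 4 with the replicate block and GC correction, 0 with the Xist covariate (490 at an unadjusted p under 0.05 by edgeR), 118 without WT-795 with the GC correction, and between 1 and 1512 with 1 library left out (9 without mut-795, 1512 without WT-795). Loop genes past the threshold were between 0 and 1 with 1 library left out, and genes of the pathway lists between 0 and 8, 3 with no filter (Gnai2, Ramp2 and Igfbp6, lower) and 1 without WT-795 with the GC correction. The cause of these changes was not tested.

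The shared numbers in the titles did not pair the libraries by their levels. Deviations from the group means had correlations of -0.18, 0.24 and -0.20 for mut-596 with WT-596, mut-597 with WT-597 and mut-795 with WT-795. Only mut-597 correlated best with its own number. With 3 libraries a group this check cannot exclude pairing, and the sources used here do not give the meaning of the numbers. With the replicate block 1 gene and 0 loop genes passed, as without it. Depth limits Ihh most, whose pooled ratio lay between 0.117 and 1.14 with 1 library left out, an alternative chosen after seeing the data, and Pthlh, Gli1 and Gli2 rest on 32 to 119 counts a library.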
